A study of Mus musculus with 19 samples.

Results

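The genes of the proteasome were followed in ribosome footprints and RNA of mouse lung adenocarcinoma (LUAD) and alveolar type 2 (AT2) organoids. Genes were taken by name, as those whose symbol in the lists of translated open reading frames (ORFs) begins with Psm, a letter from a to g and a number. Of 7266 genes in those lists, 39 matched, and their estimated counts were summed over 124 transcripts. They comprise 6 alpha and 7 beta subunits of the 20S core, 6 ATPases, 3 other base subunits and 8 lid subunits of the 19S cap, 2 assembly chaperones of the cap and 3 of the core, 3 activators and 1 inhibitor. The name table holds 54 symbols of this form, and the other 15 are paired with no transcript by the ORF lists. Among these 15 are the interferon-induced catalytic subunits Psmb8, Psmb9 and Psmb10, the alpha subunit Psma5 and the activator subunit Psme2, so the immunoproteasome was not analysed here.

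The organoids were of strain C57BL/6, had been plated for 48 hours and received cycloheximide, a drug that holds ribosomes in place on the message, at 100 µM for 5 minutes. The footprint and RNA parts each held 4 LUAD and 3 AT2 libraries, and the ORF part held 3 LUAD libraries, titled KP and assigned by their source label, and 2 AT2 libraries. Footprints came from RiboLace, which pulls down translating ribosomes. The labels give the RNA libraries that protocol too, so the preparation of the RNA is not known. The series names 3 independent tumour organoids and 2 independent AT2 cultures, but nothing says which footprint or RNA libraries are separate cultures. The p-values therefore measure the spread between these libraries, which may be technical.

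The proteasome degrades proteins tagged with ubiquitin. Its barrel-shaped core is built of outer alpha rings, which gate entry, and inner beta rings, which carry the active sites. The cap recognises tagged proteins, removes the ubiquitin in its lid and unfolds the chain with a ring of ATPases in its base. Dedicated chaperones assemble both particles, and alternative activators open the gate without a cap. In alveolar cells, as in most others, its genes are expressed at all times and are known to be raised together when degradation falls short.

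Footprint depth was 4.80, 14.17, 13.34 and 14.25 M estimated counts in LUAD and 3.03, 3.49 and 3.83 M in AT2. RNA depth was 32.92, 33.20, 29.29 and 27.18 M in LUAD and 9.57, 10.23 and 4.12 M in AT2. The first AT2 footprint library stands apart, since 52.1% of its counts paired with genes fall on Mettl26, against 0.261% to 4.14% in the other 6 footprint libraries. By their deviations over all genes, the libraries of each assay fall into 2 sets that cut across the tissues. Set 1 holds footprint libraries 1 and 2 of LUAD and 1 of AT2, and RNA libraries 1 and 2 of each. Set 2 holds the rest, and what the sets are was not tested. Of 10 AT2 markers 6 were measured, and their summed level was 184 to 221 CPM (counts scaled to a common library size) in LUAD footprints and 1206 to 1412 in AT2 footprints. Among them Etv5 overlapped, at 15.4 to 24.1 footprint CPM in LUAD and 10.2 to 18.6 in AT2. Slc34a2 was at 3.56 in the first AT2 footprint library and 0 in the others. The summed level of 2 measured of 8 macrophage and leukocyte markers was 77.6 to 101 footprint CPM in LUAD and 8.68 to 8.89 in AT2. In RNA, those 2 markers summed to 150 to 200 CPM in LUAD and 6.78 to 19.4 in AT2. Of 7 AT1 markers 5 summed to 58.8 to 117 footprint CPM in LUAD and 498 to 1329 in AT2. Aqp5 made up most of that AT2 sum, and Aqp5, Ager and Cldn18 were each lower in LUAD. Cav1 went the other way, at 41.6 to 89.3 footprint CPM in LUAD and 2.27 to 23.1 in AT2, and Rtkn2 overlapped. Of 5 gastric and gut markers 4 summed to 111 to 244 footprint CPM in LUAD and 13.3 to 57.1 in AT2. Tff1 alone of these overlapped, at 19.9 to 148 in LUAD and 7.12 to 57.1 in AT2. Club, ciliated, basal, fibroblast and endothelial markers were not measured. The part of these markers in the results was not tested, and in bulk libraries fewer cells of a type and less RNA per cell cannot be told apart.

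Proteasome genes took 0.846%, 0.867%, 1.21% and 1.22% of the paired footprint counts in the 4 LUAD libraries, and 0.318%, 0.965% and 0.934% in the 3 AT2 libraries. In the first AT2 footprint library 52.1% of the paired counts fall on Mettl26, which lowers its share. In RNA the shares were 0.937%, 0.921%, 1.18% and 1.21% in LUAD and 0.768%, 0.788% and 0.932% in AT2. The footprint shares overlap between the tissues, and the RNA shares do so by a narrow margin. Both tissues are higher in set 2 than in set 1, in both assays, as the plot of shares by library shows. In LUAD footprints 32 of 35 members tested were higher in set 2, with a median log2 difference of 0.62, and in AT2 footprints 34 of 35, with 0.72. In RNA 32 of 35 members were higher in set 2 in LUAD, with a median of 0.55, and 33 of 35 in AT2, with 0.40. Over all genes these medians lay between -0.03 and 0.

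**Figure D1:**
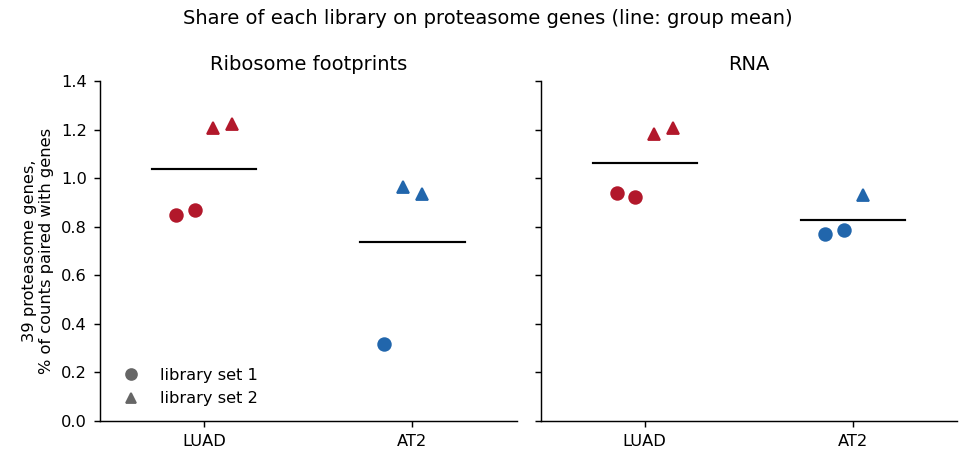
Share of each library's counts on the 39 proteasome genes, in percent of the counts paired with genes (y axis), for LUAD and AT2 libraries in footprints and RNA; circles are library set 1, triangles set 2, lines the group means. Triangles lie above circles within each tissue. The first AT2 footprint library, where 52.1% of the paired counts fall on Mettl26, is lowest at 0.318%.

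Of the 39 genes, 35 passed the filter on low counts in each assay. Psmd6 (a lid subunit), Psmd9 (a base chaperone) and Psmf1 (an inhibitor of the core) are paired only through transcripts without their coding frame, had at most 18 counts in any library and passed in neither. The activator Psme3, paired in the same way, had 0 to 54 counts and passed in RNA alone. Its RNA level was 2.02, 0, 2.10 and 0 CPM in LUAD and 4.13, 0 and 4.66 CPM in AT2. Its footprint level was 1.78, 0, 1.18 and 5.06 CPM in LUAD and 0, 0 and 3.78 CPM in AT2. Psmf1 had 17 counts in LUAD footprint library 3 and 10 in LUAD RNA library 2, and was listed at 0 in the other LUAD and all AT2 libraries. Neither gene can be compared between the tissues at these counts.

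In footprints, 2 of the 35 genes passed the test, 1 higher and 1 lower in LUAD (quasi-likelihood test of edgeR, with p adjusted over all genes after Benjamini and Hochberg, at 0.05). Over all 6814 genes tested 21.3% passed, 9.47% higher and 11.8% lower. The median log2 fold change of the proteasome genes, LUAD over AT2, was 0.15 against -0.02 over all genes, and 21 of 35 were above 0, against 49.1% of all genes. Without the first AT2 footprint library the median was -0.03 against 0.07 over all genes, with 17 of 36 above 0. That library is the sole AT2 footprint library of set 1. Within the sets the median difference was 0.25 in set 1 and 0.23 in set 2, with 24 of 35 genes above 0 in each. With the library set as a term, added after seeing the data, 12 members were called higher and 4 lower in footprints, where 20.7% of all genes were higher and 21.4% lower. In RNA that fit called 18 higher and 2 lower, where 28.5% of all genes were higher and 25.2% lower.

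In RNA, 9 of the 35 genes passed, 8 higher and 1 lower in LUAD, where 37% of all 6942 genes tested passed, 19% higher and 18% lower. The median log2 fold change was 0.44 against 0.04 over all genes, and 31 of 35 genes were above 0, against 51.5% of all genes. Within the sets the median difference was 0.25 in set 1, with 23 of 35 above 0, and 0.45 in set 2, with 30 of 35. The shares that passed, 8 of 35 higher and 1 of 35 lower, are close to the background for the higher calls. Scaling by all transcripts of the tables moved the median of all genes to 0.31 in footprints and 0.24 in RNA. Under it 3 members were called higher and 0 lower in footprints, and 19 higher and 0 lower in RNA. Measured from the median of all genes, the members' median stayed at 0.17 in footprints and 0.41 in RNA.

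**Figure D2:**
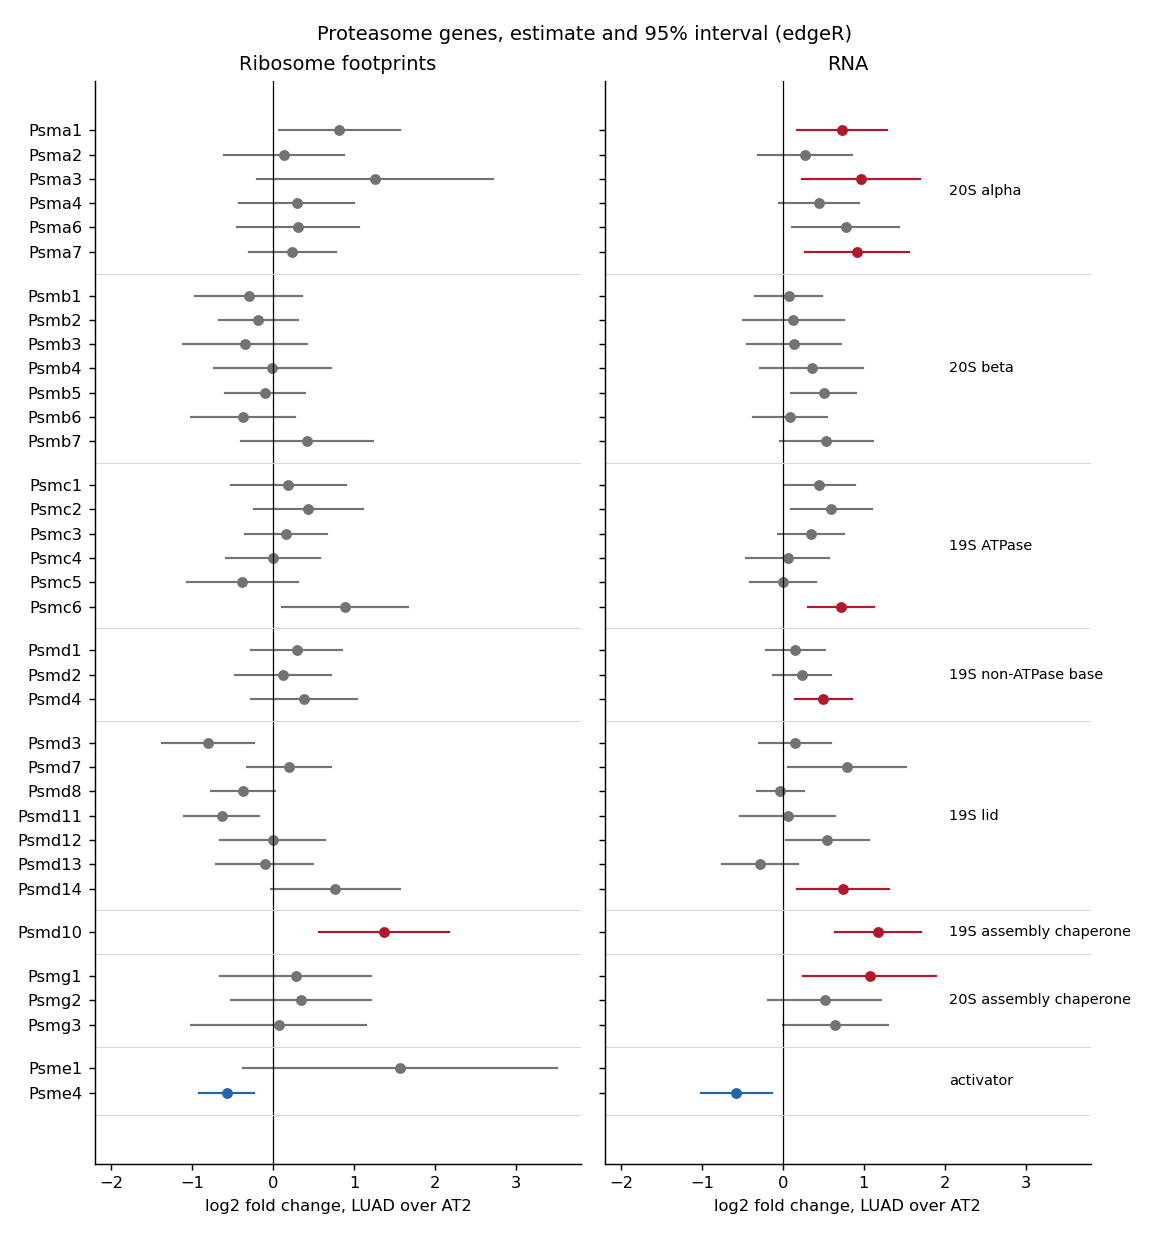
Log2 fold change, LUAD over AT2 (x axis), with 95% intervals from edgeR, for each proteasome gene tested (rows, grouped by role; Psme3 is left out) in footprints and RNA; red genes passed the test as higher in LUAD, blue as lower, grey did not pass. All 6 alpha subunits are above 0 in both assays, Psmd10 is higher and Psme4 lower in both.

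Psmd10, also called gankyrin, was higher in LUAD in both assays. It is a chaperone that holds the ATPase Psmc4 while the cap's base assembles. Its footprint level was 50.2, 53.7, 48.7 and 52.1 CPM in the LUAD libraries and 9.78, 29.8 and 18.5 CPM in the AT2 libraries. Its RNA level was 55.6, 52.9, 50.2 and 54.1 CPM in LUAD and 18.9, 20.3 and 32.6 CPM in AT2. The LUAD libraries lie close together in both sets, and none overlaps AT2. Among all genes 18.4% were higher without overlap in footprints and 24.3% in RNA. The log2 fold change was 1.37 ± 0.35 in footprints (SE; edgeR adjusted p = 0.0272) and 1.17 ± 0.23 in RNA (adjusted p = 0.00606). The RNA call held under each alternative in which the gene was tested. Psmd10 is named in a LUAD ORF list alone, so it entered through the tissue where it is higher. The fit on genes listed in both tissues leaves it out. The footprint call was lost when AT2 library 3 or any LUAD library was left out (adjusted p from 0.057 to 0.0768), and held without the first AT2 library (1.08, adjusted p = 0.0156). Within the sets the footprint difference was 2.35 and 1.09 on the log2 scale, and the RNA difference 1.45 and 0.67, in set 1 and set 2. The footprint difference in set 1 rests on the first AT2 library alone, with 11 counts. The RNA difference in set 2 also rests on a single AT2 library.

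Psme4, a large nuclear activator known to bind the core directly and to direct it to acetylated histones, was lower in LUAD in both assays. Its footprint level was 107, 118, 113 and 121 CPM in LUAD and 177, 169 and 167 CPM in AT2. Its RNA level was 79.5, 64.5, 61.4 and 49.9 CPM in LUAD and 86.2, 103 and 95.8 CPM in AT2. The groups do not overlap in either assay. Among all genes 17.3% were lower without overlap in footprints and 21.1% in RNA. The log2 fold change was -0.57 ± 0.15 in footprints (SE; edgeR adjusted p = 0.0276) and -0.57 ± 0.19 in RNA (adjusted p = 0.0461). Same-numbered RNA libraries deviated from their group means in parallel, as did RNA libraries of the same set with other numbers. With the number as a block the RNA call was lost (-0.48, adjusted p = 0.0901). With the library set as a term, added after seeing the data, both calls held (-0.57, adjusted p = 0.00405 in footprints and -0.55, adjusted p = 0.0189 in RNA). The sets were read from these same libraries. With scaling by all transcripts neither call held (-0.24, adjusted p = 0.315 in footprints and -0.37, adjusted p = 0.186 in RNA). In TPM the footprint difference was 0.07, and the median of all genes 0.61. The footprint call held without the first AT2 library (-0.55, adjusted p = 0.024), and was lost when any other footprint library was left out (adjusted p from 0.0625 to 0.0987). Leaving out RNA libraries 1, 2 or 3 of AT2 or 2, 3 or 4 of LUAD, each in turn, also ended the RNA call (adjusted p from 0.056 to 0.144).

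**Figure D3:**
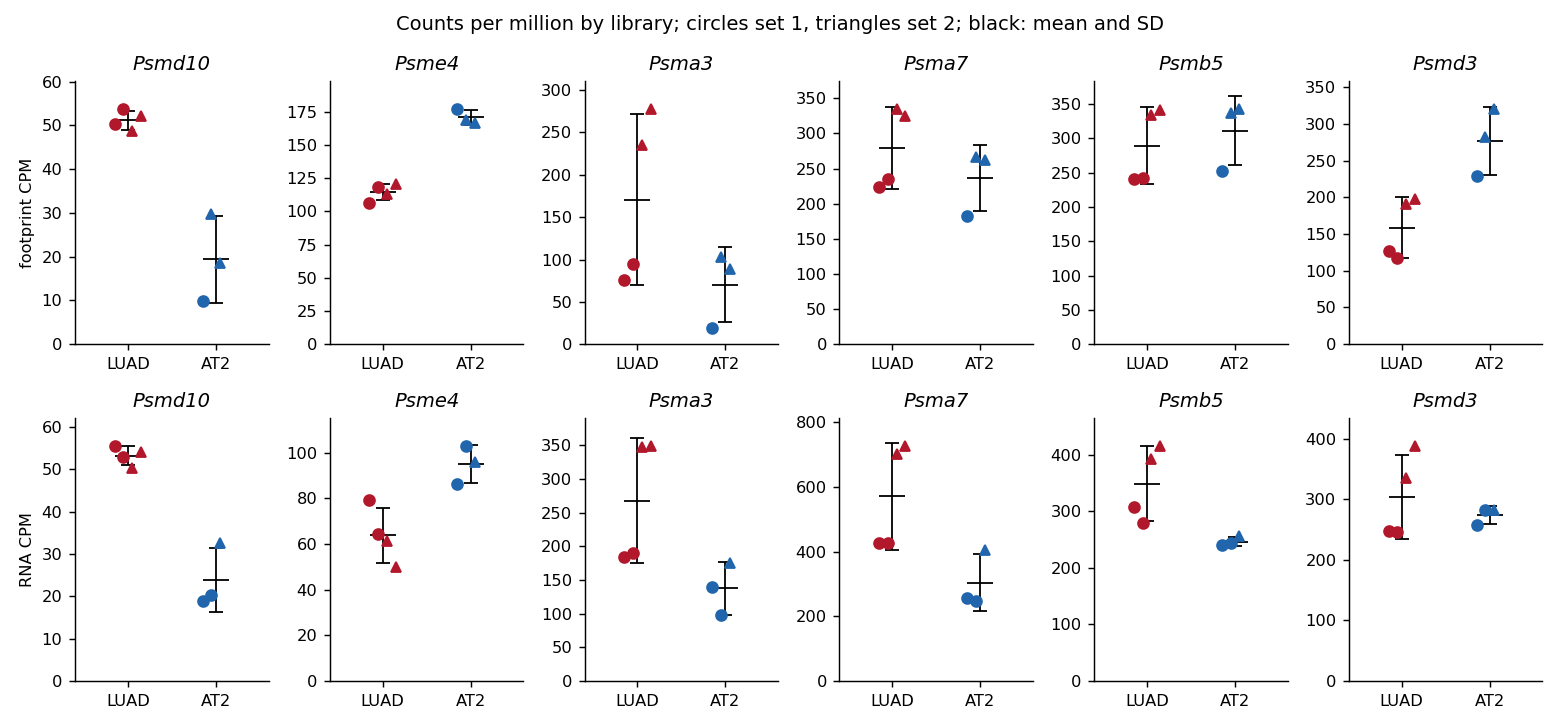
CPM in each LUAD and AT2 library (points; circles set 1, triangles set 2) with the group mean and SD (black), in footprints (top) and RNA (bottom), for 6 proteasome genes. Psmd10 lies between 48.7 and 55.6 CPM in all 8 LUAD libraries, above every AT2 library, and Psmb5 footprints overlap between the tissues.

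The 250 bases before the annotated start are printed for both genes, which were called in both assays. They are joined by the ATPase Psmc6 and the catalytic subunit Psmb5, whose windows hold the antioxidant response element read by Nfe2l1, the transcription factor known to raise proteasome genes as a group. Sequences are from RefSeq on GRCm38.p6, which is mm10, written 5′ to 3′ along the gene. Capitals mark matches on either strand to TGACNNNGC (antioxidant response element), CCAAT (NF-Y box) or GAAA, any 2 bases and GAAA (interferon-stimulated element). Psmd10 lies on the minus strand at chrX:140956712-140956961, Psme4 on the plus strand at chr11:30771525-30771774, Psmb5 on the minus strand at chr14:54617996-54618245 and Psmc6 on the plus strand at chr14:45329574-45329823.
Psmd10: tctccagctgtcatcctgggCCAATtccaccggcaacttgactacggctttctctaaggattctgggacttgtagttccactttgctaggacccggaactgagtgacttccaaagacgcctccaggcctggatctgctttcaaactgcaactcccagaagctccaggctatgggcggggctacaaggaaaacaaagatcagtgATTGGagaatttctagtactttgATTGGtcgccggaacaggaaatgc
Psme4: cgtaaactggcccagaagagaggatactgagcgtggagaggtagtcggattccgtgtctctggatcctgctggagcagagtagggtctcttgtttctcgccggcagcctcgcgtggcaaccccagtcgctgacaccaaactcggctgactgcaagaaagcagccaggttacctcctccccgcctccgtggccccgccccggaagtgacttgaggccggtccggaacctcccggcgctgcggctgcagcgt
Psmb5: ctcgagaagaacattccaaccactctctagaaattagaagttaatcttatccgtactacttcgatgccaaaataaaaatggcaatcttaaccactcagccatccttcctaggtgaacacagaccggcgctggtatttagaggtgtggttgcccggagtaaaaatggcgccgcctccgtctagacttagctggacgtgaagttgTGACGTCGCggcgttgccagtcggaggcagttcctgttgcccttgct
Psmc6: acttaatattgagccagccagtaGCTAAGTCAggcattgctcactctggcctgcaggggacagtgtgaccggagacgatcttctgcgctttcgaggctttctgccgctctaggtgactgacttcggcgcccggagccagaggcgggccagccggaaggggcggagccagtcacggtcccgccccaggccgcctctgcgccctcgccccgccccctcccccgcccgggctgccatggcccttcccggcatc
The Psmd10 window holds 3 NF-Y boxes and the Psme4 window none of these letters. Of 32 proteasome genes with a window, 12 (37.5%) hold an NF-Y box, against 37.5% of 27025 genes. The antioxidant response element is in 5 windows (15.6%), those of Psmb5, Psmb6, Psmc6, Psmd9 and Psmd12, against 11.5%. The interferon-stimulated element is in 3 (9.38%), of Psmb3, Psmd4 and Psmd9, against 3.46%. A match is a description of the letters in the window, not a binding site.

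The alpha subunits, which form the outer rings, were higher in LUAD RNA for 3 of 6 genes tested, Psma1, Psma3 and Psma7, with a median log2 fold change of 0.75, where 19% of all genes were called higher. Psma7 RNA was 426, 428, 702 and 727 CPM in LUAD and 256, 249 and 405 CPM in AT2. Psma3 RNA was 184, 189, 348 and 349 CPM in LUAD and 140.0, 97.4 and 175 CPM in AT2. For both genes every LUAD library is above every AT2 library, as for 24.3% of all genes in RNA. Psma3, like Psma1, is named in LUAD ORF lists alone. The log2 fold change was 0.91 ± 0.28 for Psma7 (SE; edgeR adjusted p = 0.0349), 0.96 ± 0.32 for Psma3 (adjusted p = 0.0439) and 0.73 ± 0.24 for Psma1 (adjusted p = 0.0454). Each of these 3 calls was lost without AT2 RNA library 1 or 2 or LUAD RNA library 3 or 4, with adjusted p up to 0.127 for Psma7, 0.15 for Psma3 and 0.154 for Psma1. On transcripts with an annotated ORF alone the Psma1 call was lost too (0.72, adjusted p = 0.0509).

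In footprints none of the 6 alpha subunits passed, where 21.3% of all genes did. All 6 had fold changes above 0, from 0.14 for Psma2 to 1.25 for Psma3, against 49.1% of all genes. Psma3 footprints were 75.6, 94.98, 235 and 277 CPM in LUAD and 19.6, 103 and 88.5 CPM in AT2. Its LUAD libraries of set 1 overlap AT2, and the fold change carries a wide error (± 0.63, SE; edgeR adjusted p = 0.204). Within the sets its footprint difference was 2.09 in set 1 and 1.41 in set 2 on the log2 scale. The value in set 1 rests on the first AT2 library alone, with 22 counts. The Psma3 counts are spread over 7 transcripts, and the share on transcripts with an annotated ORF was 81.4% in LUAD and 93.3% in AT2 footprints, but 31.7% in LUAD and 41.6% in AT2 RNA. On those transcripts alone the RNA fold change was 0.71 (adjusted p = 0.165). Psma6 footprints are assigned mostly to a transcript annotated for nonsense-mediated decay, 89.2% in LUAD and 67.9% in AT2, which carries 0.09% of its RNA in LUAD and 0% in AT2. These are estimated counts, and a frame listed on that transcript ends at the annotated stop codon. Which transcript the ribosomes were on was not tested.

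The beta subunits, which hold the active sites, did not pass in either assay (0 of 7), where 37% of all genes passed in RNA and 21.3% in footprints. Their median log2 fold change was 0.14 in RNA, with all 7 above 0, and -0.18 in footprints, with 6 of 7 below 0. Of all genes, 51.5% were above 0 in RNA and 49.1% in footprints. Psmb5 carries the chymotrypsin-like site, and its RNA was 309, 279, 393 and 416 CPM in LUAD and 239.9, 244 and 256 CPM in AT2. The groups do not overlap, with a log2 fold change of 0.50 ± 0.18 (SE; edgeR adjusted p = 0.0539), where 24.3% of all genes were higher without overlap. Its footprints were 240.0, 242, 334 and 341 CPM in LUAD and 253, 337 and 342 CPM in AT2, with full overlap and a fold change of -0.10 ± 0.21.

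Psmb6 carries the caspase-like site, and its footprints were 147, 144, 214 and 211 CPM in LUAD and 146, 264 and 282 CPM in AT2. Its RNA was 263, 223, 344 and 335 CPM in LUAD and 242, 255 and 324 CPM in AT2. Both overlap between the tissues, with fold changes of -0.37 ± 0.28 in footprints and 0.09 ± 0.20 in RNA. Psmb7 carries the trypsin-like site, and its footprints were 361, 395, 645 and 642 CPM in LUAD and 208, 497 and 438 CPM in AT2. Its RNA was 363, 363, 636 and 573 CPM in LUAD and 296, 308 and 399 CPM in AT2. These overlap as well, and the fold changes of 0.42 ± 0.35 in footprints and 0.54 ± 0.25 in RNA did not pass (edgeR adjusted p = 0.446 and 0.125).

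The alpha and beta genes were also set against each other within a library, which needs no scaling between libraries. The ratio of summed alpha to summed beta CPM was 0.890, 0.929, 0.956 and 0.950 in LUAD footprints and 0.630, 0.737 and 0.719 in AT2 footprints. In RNA it was 0.783, 0.897, 0.869 and 0.886 in LUAD and 0.643, 0.597 and 0.722 in AT2. Every LUAD library is above every AT2 library in each assay and within each set. The log2 ratio was 0.42 higher in LUAD in footprints and 0.40 higher in RNA. This ratio was chosen after the values were seen and carries no test. The groups stay apart when transcripts with an annotated ORF alone are summed, with a difference of 0.41 in footprints and 0.36 in RNA. The core as a whole against the cap gave ratios of 0.632 to 0.745 in LUAD and 0.580 to 0.733 in AT2 footprints, and 0.775 to 0.962 in LUAD and 0.718 to 0.853 in AT2 RNA. Those ranges overlap.

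**Figure D4:**
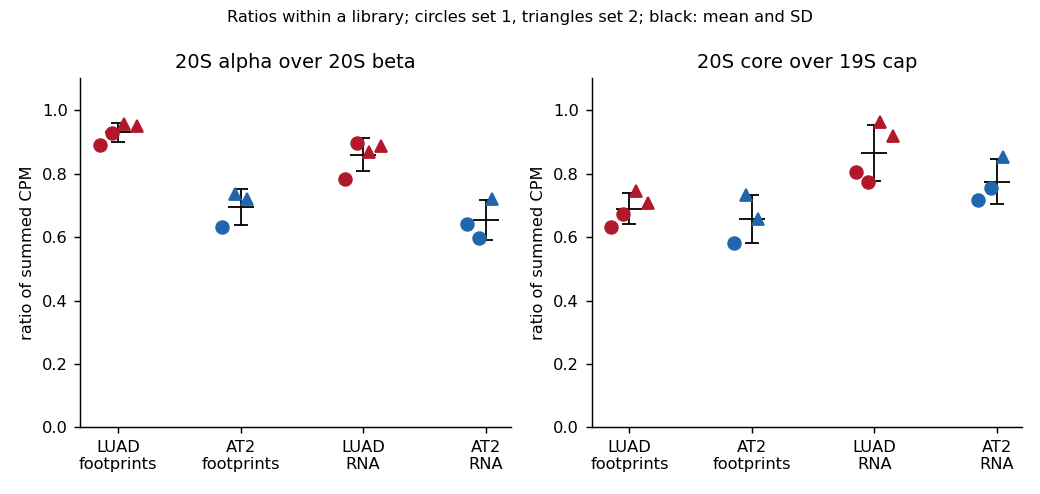
Ratio of summed CPM within each library (y axis) of 20S alpha over beta subunits (left) and of the 20S core over the 19S cap (right), for LUAD and AT2 footprints and RNA; circles are library set 1, triangles set 2, black the mean and SD. The alpha over beta ratio is 0.783 or more in each LUAD library and 0.737 or less in each AT2 library, while the core over cap ratio overlaps.

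The ATPases of the base unfold the substrate, and 1 of 6 passed in RNA, beside 19% of all genes called higher. Psmc6 RNA was 229, 255, 341 and 320 CPM in LUAD and 182, 169 and 169 CPM in AT2, without overlap. Its log2 fold change was 0.72 ± 0.18 in RNA (SE; edgeR adjusted p = 0.0147), and 0.70 without AT2 RNA library 2, where the call was lost (adjusted p = 0.0596). In footprints it was 0.89 ± 0.34, without overlap (adjusted p = 0.102). Among all genes 24.3% in RNA and 18.4% in footprints were higher without overlap. The other 5 had RNA fold changes from 0.00 (Psmc5) to 0.60 (Psmc2) and footprint fold changes from -0.38 (Psmc5) to 0.43 (Psmc2). Of the other base subunits, the ubiquitin receptor Psmd4 was higher in LUAD RNA (0.50 ± 0.15, adjusted p = 0.0336). That call was lost when any RNA library other than AT2 3 was left out (adjusted p up to 0.13). The scaffolds Psmd1 and Psmd2 had fold changes from 0.12 to 0.29 over both assays.

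The lid holds the deubiquitinase Psmd14, which was higher in LUAD RNA, 1 of 7 lid genes to pass (19% of all genes were called higher). Its RNA was 170, 177, 269 and 279 CPM in LUAD and 116, 118 and 168 CPM in AT2. The groups are separated by a small gap, where 24.3% of all genes were higher without overlap. The log2 fold change was 0.75 ± 0.25 (SE; edgeR adjusted p = 0.045). The call was lost without AT2 RNA library 1 or 2 or LUAD RNA library 3 or 4 (adjusted p up to 0.15), and on transcripts with an annotated ORF alone (0.73, adjusted p = 0.0514). In footprints the fold change was 0.77 ± 0.35 (adjusted p = 0.156).

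Of the other lid subunits, 3 scaffold proteins had lower LUAD footprints without overlap and did not pass, where 17.3% of all genes were lower without overlap. They are named after their values were seen. Psmd3 footprints were 127, 118, 191 and 197 CPM in LUAD and 229, 282 and 320 CPM in AT2. Its RNA was 248, 245, 335 and 388 CPM in LUAD and 257, 283 and 283 CPM in AT2. The footprints are separate and the RNA overlaps. The footprint fold change was -0.81 ± 0.24 (SE; edgeR adjusted p = 0.0505), and DESeq2 gave an adjusted p of 0.0196 (0.0191 for Psmd11). Psmd11 footprints were 158, 154, 181 and 207 CPM in LUAD and 209.9, 310.0 and 295 CPM in AT2, with a fold change of -0.64 ± 0.20 (adjusted p = 0.0579). Psmd8 had a footprint fold change of -0.37 ± 0.17 (adjusted p = 0.169). Without the first AT2 footprint library Psmd3 (-0.93, adjusted p = 0.035) and Psmd11 (-0.79, adjusted p = 0.015) passed. Both also passed with the library set as a term (-0.73, adjusted p = 0.00161 for Psmd3 and -0.56, adjusted p = 0.00501 for Psmd11). With any footprint library but the first AT2 one left out, neither passed (edgeR adjusted p from 0.0653 to 0.16). Scaling by all transcripts gave -0.47 for Psmd3 (adjusted p = 0.222) and -0.31 for Psmd11 (adjusted p = 0.343). In TPM the fold changes were -0.17 and -0.15 (limma adjusted p = 0.848 and 0.881), where the median of all genes was 0.61. The RNA fold changes of these 3 genes lay between -0.03 and 0.15.

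The chaperones Psmg1 and Psmg2 work as a pair to join the alpha subunits into a ring, and Psmg3 acts in the same step with a further partner. Psmg1 RNA was 49.5, 54.1, 95.7 and 96.4 CPM in LUAD and 23.3, 32.9 and 50.4 CPM in AT2. It was higher in LUAD, by 1.07 ± 0.36 on the log2 scale (SE; edgeR adjusted p = 0.0461), although the lowest LUAD library lies just under the highest AT2 library. The call was lost without AT2 RNA library 1 or 2 or LUAD RNA library 3 or 4 (adjusted p up to 0.151), and on transcripts with an annotated ORF alone (1.06, adjusted p = 0.0525). Psmg1 is named in a LUAD ORF list alone. Its footprints were 45.2, 36.7, 63.4 and 65.3 CPM in LUAD and 18.7, 64.1 and 45.4 CPM in AT2. These overlap, with a fold change of 0.28 ± 0.41, and 44.0% of them in LUAD and 63.7% in AT2 fall on transcripts with an annotated ORF.

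Psmg2 RNA was 39.8, 41.1, 60.7 and 58.2 CPM in LUAD and 23.1, 32.0 and 50.8 CPM in AT2. Its footprints were 13.4, 11.5, 20.4 and 20.6 CPM in LUAD and 9.78, 15.7 and 13.2 CPM in AT2. Both overlap between the tissues (0.51 ± 0.31 in RNA and 0.34 ± 0.38 in footprints, log2 fold change and SE). Psmg3 RNA was 51.1, 44.8, 83.2 and 79.3 CPM in LUAD and 32.7, 41.6 and 50.04 CPM in AT2. Its footprints were 29.7, 28.7, 39.8 and 44.1 CPM in LUAD and 9.78, 51.3 and 38.9 CPM in AT2, and neither assay passed (0.65 ± 0.28 in RNA and 0.07 ± 0.47 in footprints).

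Psme1 is a subunit of the interferon-induced activator that opens the core for peptides. Its footprints were 148, 127, 96.5 and 129.8 CPM in LUAD and 0, 81.0 and 42.0 CPM in AT2. Every LUAD library is above every AT2 library, as for 18.4% of all genes, and Psme1 is named in a LUAD ORF list alone. The fold change of 1.56 ± 0.84 did not pass (SE; edgeR adjusted p = 0.232). Its 1 paired transcript is listed at 0 in all 7 RNA libraries, so no value per RNA is given. The cause of that 0 was not tested.

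Footprints per RNA compare the change of footprints with the change of RNA in a single model over the 14 libraries. None of the 36 proteasome genes tested passed (edgeR), 1 had an unadjusted p under 0.05, and DESeq2 called 0 as well. The 36 include Psme1 and Psme3, whose estimates rest on RNA or footprints near 0. Over all 7083 genes 0.72% passed. The median log2 fold change was -0.10 against 0.01 over all genes, and 11 of 36 genes were above 0, against 50.6% of all genes. All 7 beta subunits were below 0, from -0.53 for Psmb5 to -0.04 for Psmb7, with a median of -0.30, as were all 3 core chaperones. The 6 alpha subunits ran from -0.60 for Psma7 to 0.37 for Psma3. The gene with an unadjusted p under 0.05 was Psmd3 (-0.88 ± 0.33, SE; adjusted p = 0.237). The interval for Psmb5, -1.13 to 0.08, holds both a decrease of more than 2-fold and no change. Without the first AT2 footprint library the median was -0.37 against 0.03 over all genes and 5 of 36 were above 0, with 0 called. With the library set as a term it was 0.05, with Psma3 called higher and Psmd3 lower, where 3.84% of all genes were higher and 3.47% lower. The sets were read from the same libraries, so these calls are no independent support.

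Levels were compared between genes per length, as footprint CPM per kilobase (kb) of coding sequence and RNA CPM per kb of transcript. The mature core holds each subunit in equal number. In LUAD footprints the 13 core subunits ran from 109 ± 20.6 CPM per kb for Psmb2 to 803 ± 209.7 for Psma2 (SD, n = 4). In AT2 footprints they ran from 91.8 ± 58.2 for Psma3 to 729.7 ± 271 for Psma2 (SD, n = 3). In RNA the range of the core was narrower. It ran from 185 for Psma2 to 624 for Psma7 in LUAD and from 140.0 for Psma3 to 371 for Psmb4 in AT2. The SD of the log2 level over the 13 subunits was 0.84 in LUAD and 0.94 in AT2 footprints, and 0.49 in LUAD and 0.48 in AT2 RNA. Over 16 cap subunits the order was the reverse with these lengths. There the SD was 0.54 in LUAD and 0.57 in AT2 footprints, and 0.73 in LUAD and 0.78 in AT2 RNA. Psma2 thus had the highest footprint level in both tissues, and its RNA level was the lowest of the core in LUAD. The median core subunit had 361 CPM per kb in LUAD and 322 in AT2 footprints, against 205 in LUAD and 207 in AT2 for the 16 cap subunits that passed the filter. In RNA the core median was 325 in LUAD and 263 in AT2, and the cap median 181 in LUAD and 145 in AT2. With effective lengths in place of coding lengths the SD over the core in footprints was 0.65 in LUAD and 0.74 in AT2. Over the cap it was then 0.72 in LUAD and 0.65 in AT2 footprints. With effective lengths in RNA too, the cap gave 0.75 in LUAD and 0.80 in AT2. In LUAD the cap footprints then spread nearly as much as the cap RNA, and more than the core footprints.

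**Figure D5:**
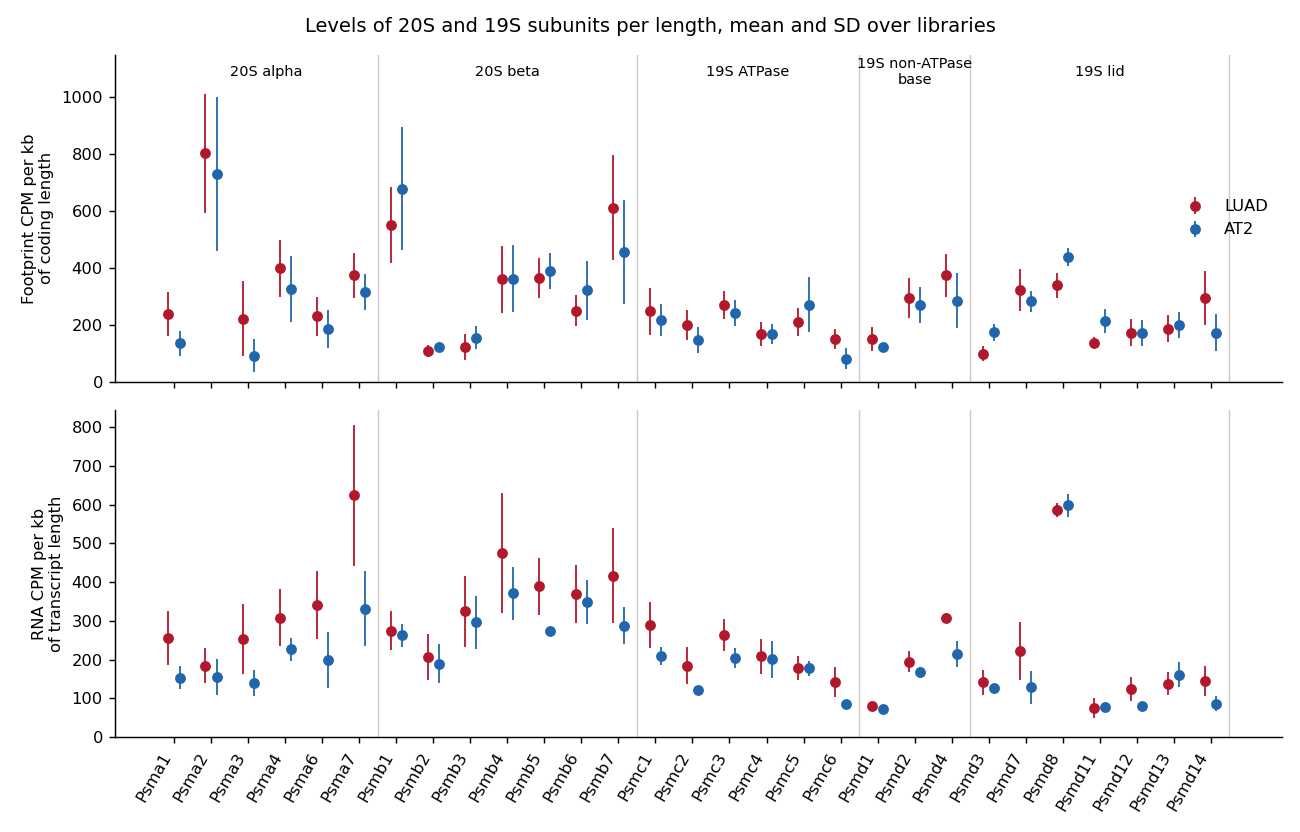
Level per length of each 20S and 19S subunit, as footprint CPM per kb of coding sequence (top) and RNA CPM per kb of transcript (bottom), for LUAD (red) and AT2 (blue); points are means and bars the SD over 4 LUAD or 3 AT2 libraries. Psma2 has the highest core level in footprints of both tissues, at 803 in LUAD and 729.7 in AT2, and Psmd8 the highest cap level in RNA.

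The ORF lists give the footprint positions (P-sites, the codon in the ribosome's peptidyl site) of each translated frame. They named 36, 20 and 15 of the 39 genes in the 3 LUAD libraries and 5 and 13 in the 2 AT2 libraries. The lists hold frames past the authors' own threshold, and LUAD library 1 is the deepest at 11.82 M P-sites, as the authors' RPKM imply, against 2.73 and 3.08 M in the other LUAD and 2.70 and 1.42 M in the AT2 libraries. Of the 39 genes, 23 are named in LUAD lists alone, 16 in both and 0 in AT2 lists alone. Among all 7266 genes 4115 are in LUAD lists alone, 2596 in both and 555 in AT2 lists alone. A gene missing from a list is no zero, and depth moves with tissue here.

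An annotated frame was listed for 35 genes. The median share of its P-sites in frame was 52.2%, 48.2% and 44.8% in the 3 LUAD libraries and 45.8% and 47.9% in the 2 AT2 libraries. These medians cover the 32, 18 and 12 genes listed in LUAD and the 2 and 11 listed in AT2. The value of AT2 library 1 thus rests on 2 genes. Over all genes with an annotated frame the median share was 50.6%, 50% and 50% in LUAD and 52.6% and 52.9% in AT2. The proteasome genes were above the median of all genes in LUAD library 1 and below it in the other 4. Psma7 had the highest annotated P-site density in 3 lists, with authors' RPKM of 84.6 and 53.6 in LUAD libraries 1 and 2 and 68.2 in AT2 library 2. Psmd10 was listed in LUAD library 1 alone, with 65 of 118 P-sites in frame, and Psme4 in LUAD library 2 alone as an annotated frame, with 38 of 85.

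Other frames numbered 68 in 29 of the genes, beside 69 annotated frames, and 18 of them end at the stop codon of an annotated frame. Psmb1 had a frame of 168 bases, labelled as downstream, in 4 of 5 lists, with 75 and 25 in-frame P-sites in LUAD libraries 1 and 2 and 21 and 15 in the 2 AT2 libraries. Psmd2, a base scaffold, had a frame of 2553 bases on a transcript annotated for nonsense-mediated decay, with 567 and 103 in-frame P-sites in LUAD libraries 1 and 2. Both share their stop with the annotated protein.

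Of the genes that work with the proteasome, 36 were measured. In footprints 2 were higher and 7 lower in LUAD, and in RNA 3 were higher and 9 lower (edgeR), and 0 passed in footprints per RNA. Over all genes 9.47% were higher and 11.8% lower in footprints, and 19% higher and 18% lower in RNA. Uchl5, a deubiquitinase bound to the cap, was higher in footprints (1.62 ± 0.42, log2 fold change and SE; adjusted p = 0.0308) and RNA (1.45 ± 0.34, adjusted p = 0.0126). Uba6, an enzyme that activates ubiquitin, was higher in footprints (0.92 ± 0.20, adjusted p = 0.0145) and RNA (0.88 ± 0.28, adjusted p = 0.0414). Of the scaffold Ecpas, the shuttle factor Rad23b and the Vcp cofactor Nsfl1c, RNA alone passed, lower for Ecpas and Rad23b and higher for Nsfl1c.

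Nfe2l1 and Nfe2l2, transcription factors known to raise proteasome genes, were lower in LUAD. Nfe2l1 RNA was 71.4, 69.2, 44.7 and 61.3 CPM in LUAD and 279, 263 and 171 CPM in AT2. Its footprints were 155, 147, 83.5 and 94.6 CPM in LUAD and 446, 200 and 233 CPM in AT2. The tissues do not overlap in either assay, with fold changes of -1.95 ± 0.23 in RNA (SE; edgeR adjusted p = 0.000677) and -1.28 ± 0.34 in footprints (adjusted p = 0.0336). Among all genes 21.1% in RNA and 17.3% in footprints were lower without overlap. Nfe2l2 had -0.96 ± 0.14 in RNA (adjusted p = 0.00161) and -0.70 ± 0.21 in footprints (adjusted p = 0.0462). Of the proteasome genes whose windows hold the antioxidant response element, Psmb5, Psmb6, Psmc6 and Psmd12 were tested. Their RNA fold changes were 0.50, 0.09, 0.72 and 0.55, and Psmc6 alone passed, beside 19% of all genes called higher. A link between these factors and the proteasome genes was not tested.

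Vcp, the segregase that extracts tagged proteins for the proteasome, was lower in LUAD footprints (-1.07 ± 0.21, SE; edgeR adjusted p = 0.00961) and RNA (-1.05 ± 0.22, adjusted p = 0.0078). Among measured partners of the immunoproteasome in antigen presentation, Tapbp, H2-K1 and H2-D1 were lower in both assays. H2-K1 had the largest of these 3 differences, -2.69 ± 0.22 in footprints and -2.16 ± 0.22 in RNA. The H2 genes share reads with near copies and are uncertain. B2m, the light chain of the same complex, had 0.09 ± 0.19 in footprints and 0.02 ± 0.24 in RNA.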

How the data were processed

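Footprints, RNA and ORFs were analysed in 19 libraries, grouped by their labels. Footprint and RNA tables hold the authors' estimated counts and TPM for each transcript; the submitters' processing notes name kallisto. Each deposited ORF list holds counts of P-sites by frame, the authors' RPKM and their p-value for in-frame P-sites, none above 0.05. They are on mm10 per the submitters' processing notes, and no source used here names the caller. Gene names came from the ORF lists: 98.4% of their 22871 transcripts are in the tables and carry 65.0% to 70.0% of each library's counts. Pairing needs a listed ORF, which favours genes translated in the deeper LUAD libraries.

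Counts were summed to genes and rounded. edgeR 4.0.16 in R 4.3.3 (TMM, filterByExpr, robust quasi-likelihood test) was fitted over all genes, with the interaction of tissue and assay for footprints per RNA, and checked on simulated counts. CPM uses the TMM-scaled library size. DESeq2 1.42.0 and limma 3.58.1 on log2(TPM + 1) served as alternatives. The deposited TPM values were used there only. The library sets were read from the libraries' own deviations, not from labels. Members and lists were chosen with earlier results of these data known. Values by library are given for the catalytic subunits, activators, inhibitor and core chaperones, and for up to 5 genes per direction with the largest change past the test and a mean of at least 50 counts (20 for footprints per RNA). The planned ratio of immunoproteasome to constitutive subunits was not run, as Psmb8, Psmb9 and Psmb10 are not paired. LUAD and AT2 RNA libraries of the same number correlated in their deviations from the group means (0.20 to 0.28 over 3 pairs), a check from the data and not the labels. These 3 pairs all lie within a set, and the 6 pairs within a set, other numbers included, correlated as much (0.20 to 0.30).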

Additional observations from a re-analysis of the deposited data

How the results depend on the processing

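Counts of proteasome genes called are given as higher and lower in LUAD. In footprints (1 and 1) they were 2 and 3 with DESeq2, 3 and 0 with scaling over all transcripts, 2 and 1 with transcripts carrying an annotated ORF alone, 0 and 0 with genes listed in both tissues alone, and 1 and 0 in TPM. In RNA (8 and 1) they were 19 and 0 with scaling over all transcripts, 4 and 1 with annotated transcripts, 4 and 0 with genes listed in both tissues, and 12 and 0 in TPM. Alternatives added after seeing the data gave 12 and 4 in footprints with the library set as a term, 14 and 2 in set 1 alone and 14 and 7 in set 2 alone. In RNA these were 18 and 2, 16 and 2, and 22 and 2. In footprints per RNA (0 and 0) they were 1 and 1 with the set as a term, 2 and 1 in set 1 and 0 and 6 in set 2. In TPM, which spans the whole library, the members' median was 0.71 in footprints and 0.47 in footprints per RNA (-0.10 in counts), beside 0.61 over all genes in each. The cause of these changes was not tested, and fewer genes or transcripts enter some of them.

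Leaving out each library in turn gave 0 to 2 higher and 0 to 3 lower in footprints with medians from -0.03 to 0.28, 1 to 11 higher and 0 to 1 lower in RNA with medians from 0.30 to 0.53, and 0 called in footprints per RNA with medians from -0.37 to 0.00. Where the gene passed the test on either side, the direction reversed for Psme4 footprints in TPM (0.0687, beside 0.61 over all genes), and in set 1 alone for Psmd11 RNA (-0.33) and Psmb7 footprints per RNA (0.59). Of 2100 values of single genes under an alternative, 227 others changed sign without passing on either side. With the replicate block, 1 and 1 members were called in footprints, 11 and 1 in RNA and 0 and 0 in footprints per RNA. The block ended both calls of Psme4 (adjusted p = 0.138 in footprints). Footprint libraries of the same number did not deviate together (correlations from -0.26 to 0.35), so there the number is only a name. With the authors' p at most 0.01 the ORF lists named 27, 14 and 10 members in LUAD in place of 36, 20 and 15, and 1 and 6 in AT2 in place of 5 and 13. With effective lengths the SD over core subunits was 0.65 in LUAD and 0.74 in AT2 footprints. Over cap subunits it was 0.72 in LUAD and 0.65 in AT2 footprints. AT2 footprint depth (3.03 to 3.83 M) limits the precision. By Dixon's test 0 of 72 groups of 4 LUAD libraries held a library that stood apart. The test looks for a single library, so it cannot show a split by set, and AT2 libraries were not examined.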
